A study of Mus musculus with 239 samples.

Results

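Luminal cells of the mouse mammary gland were compared between pregnancy and the virgin state, cell by cell, to separate 2 kinds of difference: a gene can be set higher or lower in most cells, or it can be gained or lost in some of them. All luminal-gate cells of the series were taken, 49 from pregnant and 54 from virgin mice, which makes 103 of its 239 single-cell RNA-seq profiles; the other profiles are basal-gate cells. Pregnant cells came from FVB females at day 12 of pregnancy (12.5 in the protocol text) and virgin cells from FVB females, in both cases 3 to 4 months old, with no transgene, agent or allele named in the labels. Mammary glands (number 4) were dissociated, haematopoietic and endothelial cells were depleted, and viable cells with high CD24 and low CD29 were sorted and captured on microfluidic chips for cells of either of 2 size ranges. The labels tie no cell to a mouse, chip or day. Each group therefore counts as 1 sample, no difference was tested, every SD is a spread over cells, and mouse, chip and pregnancy cannot be told apart.

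The luminal layer of the mammary gland holds hormone-sensing cells, which carry the receptors for oestrogen, progesterone and prolactin and signal to their neighbours through secreted factors, and alveolar cells with their progenitors, which make milk. During pregnancy prolactin acts through the kinase JAK2 and the transcription factor STAT5, and progesterone acts largely through neighbouring cells, so that alveoli grow and milk protein and milk fat genes are switched on before birth. A mean over sorted cells cannot tell apart a gene that every cell lowered from a gene whose cells are missing, whereas values in single cells show how many cells hold a transcript and how much each of them holds.

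Fragment numbers, read from the value of 1 fragment in each cell, were 2.63 to 39.9 M (M for mega) per pregnant luminal cell (median 8.86) and 1.18 to 28.5 M per virgin luminal cell (median 8.55). A median pregnant cell had 3653 genes at 1 FPKM or more, FPKM being abundance corrected for transcript length and sequencing depth, and a median virgin cell had 3773. Luminal markers were found in nearly all cells of both groups: Krt8 and Krt18, the simple epithelial keratins, and Epcam, an epithelial adhesion molecule, reached 1 FPKM in 49 of 49 pregnant and 54 of 54 virgin cells, Krt19, another simple keratin, in 47 of 49 and 54 of 54, and Cldn3, a tight junction claudin, in 45 of 49 and 52 of 54. In 5 of 49 pregnant and 0 of 54 virgin cells, at least 3 of the 5 contractile genes Acta2, Tagln, Myl9, Cnn1 and Myh11 reached 10 FPKM, and of those 5 cells all had Krt8, Krt18, Epcam and Csn2 at 1 FPKM or more, while 4 had Krt19 and 2 had Cldn3. The summed FPKM of the 12 basal and contractile markers reached 17987 in pregnant luminal cells (median 111) and 107 in virgin luminal cells (median 0.397), beside a median of 14481 in the pregnant basal-gate cells of the series. The summed FPKM of the 9 fibroblast markers ranged from 0 to 14118 in pregnant cells, where Col3a1 and Col1a1 reached 1 FPKM in 1 cell each, and from 0 to 597 in virgin cells. The pregnant cell at 14118 also had 14158 FPKM of summed basal and contractile markers and the lowest milk protein share of its group, 0.403%. Krt14, a basal keratin, was at 0.288 FPKM in this cell, and which of the 12 markers made up its sum is not given here. Only 1 of the 5 contractile genes reached 10 FPKM in this cell, so it was not among the 5 cells above and stayed in the comparisons below. The 7 adipocyte markers were at or near 0 throughout, with summed FPKM of up to 0.0203 in pregnant and 0.0856 in virgin cells. Summed endothelial markers reached 253 FPKM in pregnant and 45.1 FPKM in virgin cells, with medians of 0 and 0.0237, summed immune markers reached 106 and 178 FPKM with medians of 0 in both, and summed erythroid markers reached 0.385 and 9.31 FPKM. None of the genes in these last 4 lists passed the detection minimum used below.

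Of 18850 genes, 6236 reached 1 FPKM in at least 25% of the cells of either group and were compared. A gene was counted as higher or lower when the means over cells of log2(FPKM + 1) differed by at least 1, pregnant minus virgin. There were 496 higher genes, or 7.95% of those compared, and 515 lower genes, or 8.26%. The pseudocount sets these numbers: with 0.1 in place of 1 they were 1079 higher and 1154 lower, and with 10 they were 110 and 130. The 10 milk protein genes together made up 17.6% of all FPKM in the median pregnant cell (0.403 to 35.8%) and 0.879% in the median virgin cell (0.0267 to 19.6%). Rescaling each cell without those genes moved the median difference over the compared genes to -0.13, from -0.02, and left 37.8% of the counted genes on the higher side, against 49.1% with the values as deposited; rescaling by median ratios gave -0.12 and 37.4%.

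Each counted gene was then split by the share of detecting cells (those at 1 FPKM or more), with a limit of 25 percentage points, and by the mean log2 FPKM among them, with a limit of 1. Among the 496 higher genes, 149 differed in share alone, 117 in level alone and 58 in both; 23 differed in share with under 5 detecting virgin cells, too few to compare levels, and 149 met neither limit, 4 of them with levels that could not be compared for the same reason. Among the 515 lower genes, 108 differed in share alone, 89 in level alone and 78 in both; 112 differed in share with under 5 detecting pregnant cells, and 128 met neither limit, 9 of them with levels that could not be compared. When each difference was divided into a part from the share and a part from the level, each taken at the average of both groups for the other, the share made up 71.2% of it in the median higher gene and 73.3% in the median lower gene. The strictest reading of a shift in all cells, a difference of at least 1 in the same direction at the 10th, 25th, 50th, 75th and 90th percentile of cells, was met by 42 higher genes (0.674% of those compared) and 33 lower genes (0.529%). For this the 10th percentile had to reach 1 FPKM in the group with the higher values. Genes missing from more of that group's cells could not qualify, so the criterion itself keeps these counts low.

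**Figure D1:**
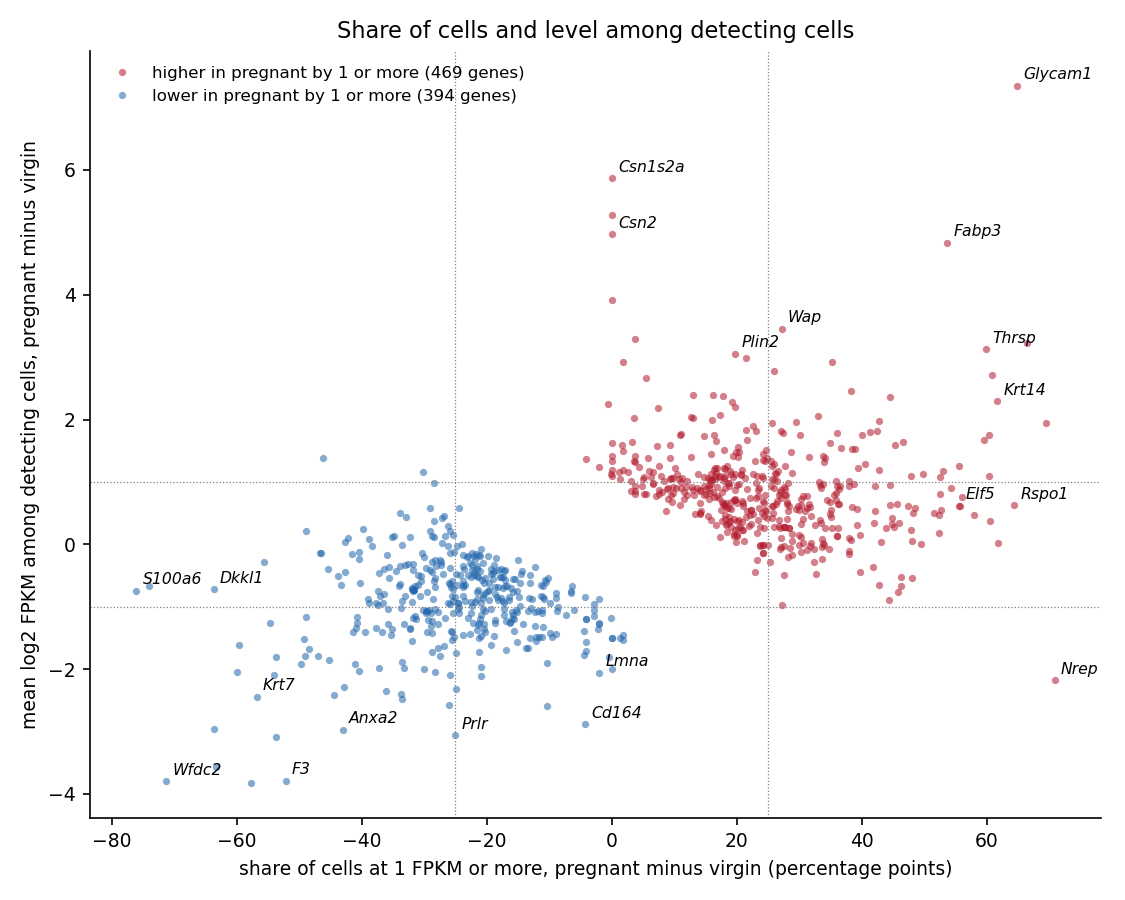
Difference between pregnant and virgin luminal cells in the share of detecting cells (horizontal, percentage points) against the difference in mean log2 FPKM among detecting cells (vertical) for the 469 higher and 394 lower genes with at least 5 detecting cells in each group; dotted lines mark 25 points and a level difference of 1. Csn2 and Csn1s2a lie at a share difference of 0 with a large difference in level, Glycam1 and Fabp3 differ on both axes, and Rspo1 and Elf5 differ mainly in share.

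The clearest shifts of the whole population were in milk genes. Of 9 compared milk protein genes, 9 were higher, with a median difference of 3.89 beside -0.02 over all compared genes, and 5 of them were higher at all 5 percentiles: Glycam1, Csn1s2a, Csn2, Wap and Csn1s1. After rescaling by either method, 9 of 9 were higher. The caseins were already on in virgin cells, so that their difference lay in level, while Glycam1 was all but absent from most virgin cells.

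Csn2 (beta-casein, the main casein of mouse milk; GRCm38 chromosome 5, 87692624 to 87699630) had 583, 25211 and 64837 FPKM in the lowest, median and highest pregnant cell, against 9.31, 323 and 28508 FPKM in virgin cells, and other genes are given in the same order. All 103 cells detected it, and the groups overlapped: 8 of 54 virgin cells were at 10000 FPKM or more, as were 41 of 49 pregnant cells. In mean log2(FPKM + 1) it was 14.16 ± 1.73 in pregnant and 9.20 ± 2.94 in virgin cells, a difference of 4.96, and the pregnant cell was the higher one in 93.2% of pairs of 1 pregnant and 1 virgin cell. Csn1s2a, another casein (chromosome 5, 87774567 to 87788797), had 294, 22461 and 52297 FPKM in pregnant and 1.2, 174 and 28345 FPKM in virgin cells, a difference of 5.80. Csn1s1, an alpha-casein (chromosome 5, 87666208 to 87682578), had 187, 9789 and 28609 FPKM in pregnant and 1.39, 475 and 13611 FPKM in virgin cells, a difference of 3.89. The lowest pregnant cell lay above the median virgin cell for Csn2 and Csn1s2a but not for Csn1s1, and for all 3 caseins the highest virgin cell lay above the pregnant median.

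Glycam1, a mucin-like milk glycoprotein (chromosome 15, 103562759 to 103565081), had the largest difference of all compared genes, 9.72. It had 84.6, 3389.6 and 23007 FPKM in pregnant cells and 0, 0.139 and 3814 FPKM in virgin cells. It reached 1 FPKM in 49 of 49 pregnant cells, 100.0% (95% interval 92.7 to 100.0), and in 19 of 54 virgin cells, 35.2% (22.7 to 49.4); at 10 FPKM or more it was found in 49 pregnant and 9 virgin cells. Among detecting cells its mean log2 FPKM was 11.31 in pregnant and 3.95 in virgin cells, so both share and level differed. Wap, the whey acidic protein (chromosome 11, 6635482 to 6638637), had 0, 421 and 9503 FPKM in pregnant and 0, 5.71 and 26456 FPKM in virgin cells, and the highest value of all was in a virgin cell. It was detected in 46 of 49 pregnant and 36 of 54 virgin cells, with a difference of 4.52. Lalba, the lactose synthase subunit that marks late alveolar differentiation (chromosome 15, 98480400 to 98482721), stood lower in this order: it had 0, 60.9 and 4065 FPKM in pregnant and 0, 5.51 and 6228 FPKM in virgin cells, a difference of 1.56 with neither limit passed.

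Since STAT5 binds a palindrome in milk gene promoters, the 250 bases before the annotated start of each gene (RefSeq sequences on GRCm38.p6) were searched for TTCNNNGAA, which reads the same on both strands. Of the 8 milk protein genes with an entry, 3 held it (Csn1s1, Csn2 and Glycam1), against 8.13% of 27025 genes with an entry. It was present in 35 of 389 higher genes (9.0%) and 29 of 387 lower genes (7.49%), against 6.99% of the 4852 compared genes with an entry. The 3 milk gene sequences are printed 5′ to 3′ on the gene's strand, ending at the base before the start, with the match in capitals; a match is a description of letters and not a measured binding site.
Csn2, chr5:87699426-87699675, minus strand: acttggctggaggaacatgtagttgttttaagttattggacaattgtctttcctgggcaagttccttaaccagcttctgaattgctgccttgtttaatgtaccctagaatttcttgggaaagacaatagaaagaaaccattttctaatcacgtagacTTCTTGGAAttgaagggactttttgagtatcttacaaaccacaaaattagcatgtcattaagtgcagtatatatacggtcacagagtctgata
Csn1s1, chr5:87665958-87666207, plus strand: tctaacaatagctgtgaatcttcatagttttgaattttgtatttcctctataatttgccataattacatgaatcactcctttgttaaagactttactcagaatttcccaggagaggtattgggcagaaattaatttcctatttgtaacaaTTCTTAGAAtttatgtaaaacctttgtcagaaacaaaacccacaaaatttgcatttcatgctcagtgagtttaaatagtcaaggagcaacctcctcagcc
Glycam1, chr15:103565082-103565331, minus strand: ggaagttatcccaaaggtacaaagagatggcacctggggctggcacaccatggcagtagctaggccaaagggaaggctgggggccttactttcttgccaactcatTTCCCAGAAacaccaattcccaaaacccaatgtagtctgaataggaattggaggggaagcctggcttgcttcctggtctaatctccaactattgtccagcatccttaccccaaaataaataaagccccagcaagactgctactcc
The match began 93 bases before the start in Csn2, 100 bases before it in Csn1s1 and 145 bases before it in Glycam1, counted from the RefSeq start. For Csn2 that start lies inside the gene as GENCODE places it, so most of the printed stretch, the match included, falls within the coordinates given for Csn2. Csn1s2a and Wap, also higher at all 5 percentiles, had no match in their 250 bases.

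Milk fat genes were higher as well, more often with a wider share of cells than in level alone. Of 18 compared genes of milk fat and fatty acid synthesis, 14 were higher and 1 was lower, with a median difference of 1.99; 4 of the 14 differed in share alone, 1 in level alone, 7 in both and 2 in neither. Fabp3, a fatty acid binding protein (chromosome 4, 130308595 to 130315463), had 1.99, 2319 and 17036 FPKM in pregnant and 0, 0.605 and 1663 FPKM in virgin cells; it was detected in 49 of 49 and 25 of 54 cells, with a difference of 7.34. Thrsp, a regulator of lipogenesis (chromosome 7, 97412938 to 97417730), had 0.0837, 661 and 4648 FPKM in pregnant and 0, 0.147 and 886 FPKM in virgin cells; it was detected in 43 of 49 and 15 of 54 cells, with a difference of 6.57. The fatty acid importer Cd36 was in 38 of 49 pregnant and 6 of 54 virgin cells (difference 4.31), and the acyl-CoA synthetase Acsl1 in 44 of 49 and 11 of 54 (difference 4.39). Each of these genes was in most pregnant cells and in fewer virgin cells.

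Plin2, which coats lipid droplets (chromosome 4, 86648386 to 86670060), was the member that differed in level alone, with 0.497, 1447 and 3117 FPKM in pregnant and 0, 66.6 and 1653 FPKM in virgin cells and a difference of 4.18. Lpl, the lipoprotein lipase, had 0.32, 68.5 and 729 FPKM in pregnant and 0, 0.41 and 119.8 FPKM in virgin cells, a difference of 4.07. Fasn, fatty acid synthase, was in 46 of 49 pregnant and 30 of 54 virgin cells, with a mean log2 FPKM among them of 5.10 and 2.64. Xdh, which anchors milk fat globules, was in 42 of 49 and 18 of 54 cells at mean log2 FPKM of 4.04 and 3.86. The lower member was Dgat2, a triglyceride-forming enzyme, which was in 3 of 49 pregnant and 21 of 54 virgin cells (difference -1.58), while its sister enzyme Dgat1 differed by 0.36. Srebf1, the transcription factor of lipogenesis, was in 36 of 49 and 20 of 54 cells (difference 1.57).

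**Figure D2:**
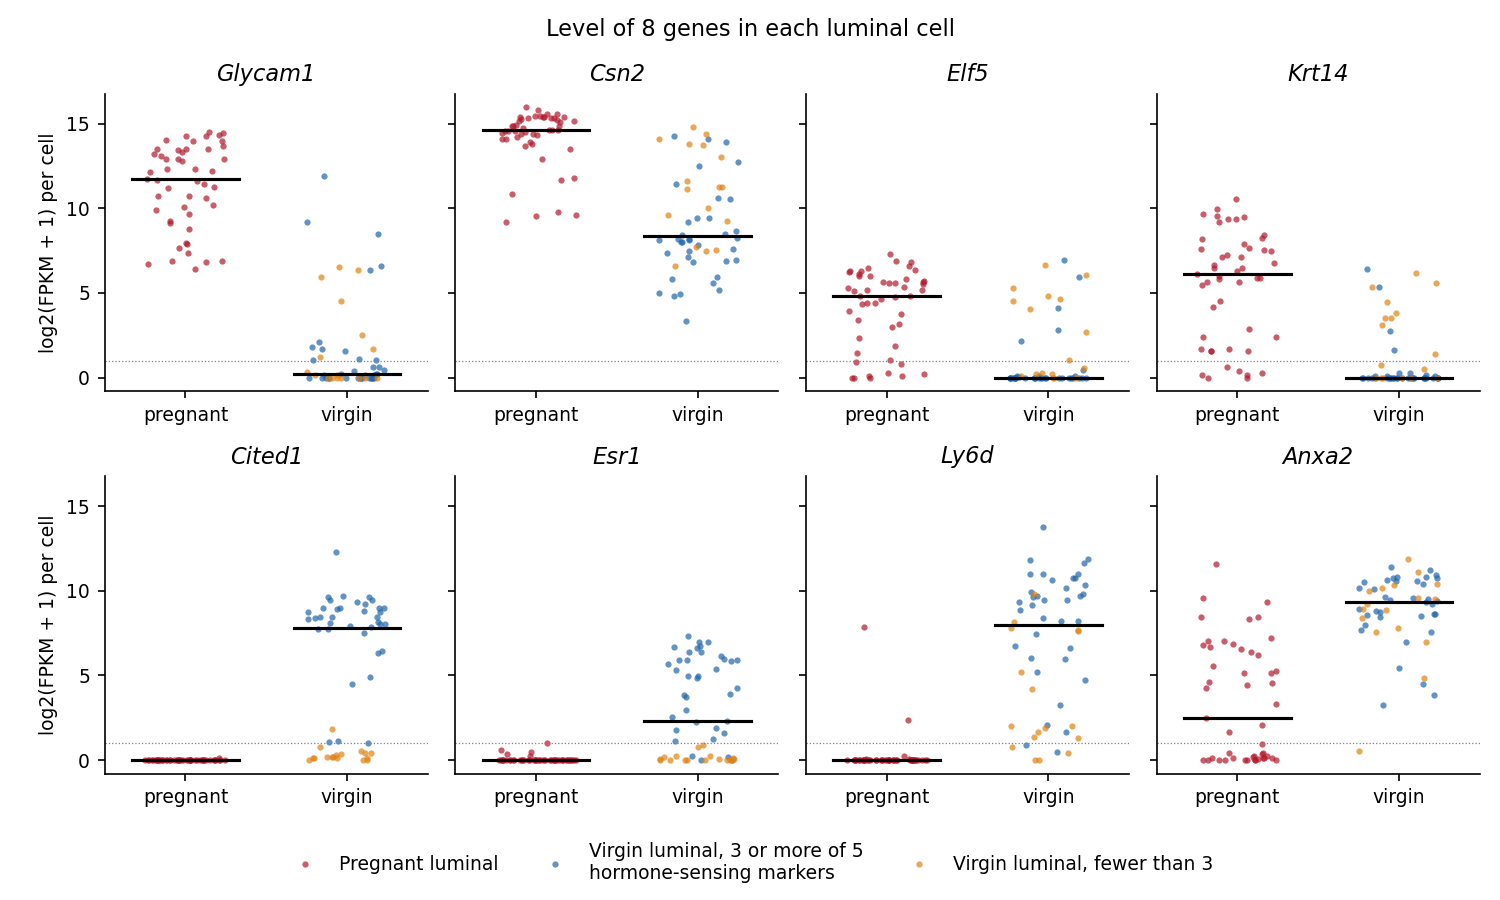
Level of 8 genes in each luminal cell, as log2(FPKM + 1), for 49 pregnant (left) and 54 virgin cells (right); black bars are medians, the dotted line is 1 FPKM, and virgin cells are coloured by whether they hold 3 or more of 5 hormone-sensing markers. Csn2 is on in all 103 cells and higher in pregnant ones, and Elf5 and Krt14 are found in more pregnant than virgin cells. Cited1 and Esr1, which are 2 of those markers, reach 1 FPKM in marker-positive virgin cells and, for Cited1, in 1 other virgin cell. Anxa2 and Ly6d are lower in most pregnant cells, but the highest pregnant cells for Anxa2 lie above its virgin median.

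Outside the milk lists, genes higher at all 5 percentiles included Chka, a choline kinase of membrane lipid synthesis, with 4.22, 144 and 1049 FPKM in pregnant and 0, 4.73 and 287 FPKM in virgin cells (difference 4.15). Xbp1, a transcription factor that enlarges the secretory apparatus, had 0, 107 and 589.9 FPKM in pregnant and 0, 9.9 and 239 FPKM in virgin cells (difference 2.82). Gjb2, a gap junction connexin, was in 45 of 49 pregnant and 17 of 54 virgin cells (difference 3.72). Ehf, an ETS-family factor of epithelia, differed by 2.05, with medians of 78.3 FPKM in pregnant and 18.9 FPKM in virgin cells. The immediate early gene Btg2 differed by 2.38, with medians of 275 and 57.5 FPKM.

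Several genes were found in more pregnant cells at levels less than 1 apart among detecting cells. Elf5, the ETS-family factor of alveolar fate (chromosome 2, 103411688 to 103450989), had 0, 27.2 and 157 FPKM in pregnant cells and 0, 0 and 123 FPKM in virgin cells. It was detected in 40 of 49 pregnant cells, 81.6% (95% interval 68 to 91.2), and 14 of 54 virgin cells, 25.9% (15 to 39.7), at mean log2 FPKM of 4.88 and 4.26. Rspo1, a secreted enhancer of Wnt signalling, was in 37 of 49 pregnant and 6 of 54 virgin cells at levels of 4.98 and 4.35. Cish, a feedback inhibitor that STAT5 induces, was in 38 of 49 and 14 of 54 cells at levels of 4.50 and 4.00. Pigr, which carries immunoglobulin A across the epithelium into milk, was in 42 of 49 and 15 of 54 cells at levels of 4.63 and 4.16. Gjb6, a second connexin, was in 31 of 49 pregnant and 3 of 54 virgin cells, too few for a comparison of levels.

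A wider share came with a lower level in Nrep, a small protein first described in neurons. It was in 42 of 49 pregnant and 8 of 54 virgin cells, at mean log2 FPKM of 4.00 among the pregnant and 6.18 among the virgin detecting cells. All 8 of those virgin cells lacked the hormone-sensing marker profile defined further on.

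Krt14, a keratin usual in basal cells (chromosome 11, 100203162 to 100207548), was higher in pregnant luminal cells: it had 0, 68.3 and 1484 FPKM in pregnant and 0, 0 and 86 FPKM in virgin cells and was detected in 42 of 49 and 13 of 54 cells. Its difference was 4.42, and 4.18 without the 5 contractile marker positive cells, where it was still in 37 of 44 pregnant cells. Other basal markers differed by less. Acta2, smooth muscle actin, differed by 1.31 with all cells and by 0.40 without those 5, and Tagln by 1.36 and 0.41; Krt5, the usual partner of Krt14, was in 4 of the 5 cells and in 0 of the other 44 pregnant cells, and 0 of 44 leaves room for a share of 6.82%. Oxtr, the oxytocin receptor, differed by 1.07 and 1.06 and was in 11 of those 44 cells. The 5 cells had median levels of 239.7 FPKM for Glycam1 and 1855 FPKM for Csn2. Krt14 was the 1 basal and contractile marker of 12 that passed the detection minimum.

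The hormone-sensing list was lower, and mainly in its share of cells. Of 11 compared members, 11 were lower and 0 were higher, with a median difference of -2.86; in 8 of them under 5 pregnant cells detected the gene, so that the share alone could be compared, and 3 (Prlr, Ly6a and Wnt4) differed in both share and level. All 11 were also lower after rescaling by either method. Esr1, the oestrogen receptor (chromosome 10, 4611593 to 5005614), had 0, 0 and 0.988 FPKM in pregnant and 0, 3.89 and 158 FPKM in virgin cells, and reached 1 FPKM in 0 of 49 pregnant cells, a count that leaves room for a share of 6.12%, and in 33 of 54 virgin cells, 61.1% (46.9 to 74.1). Cited1, a transcriptional cofactor of the oestrogen response (chromosome X, 102247381 to 102252181), had 0, 0 and 0.0798 FPKM in pregnant and 0, 225 and 5054 FPKM in virgin cells and was in 0 of 49 and 38 of 54 cells. Its highest pregnant value lay below the 1 FPKM used for detection, and so below the 38 detecting virgin cells by definition. Areg, the EGF-family ligand that relays the oestrogen signal, was in 1 of 49 pregnant and 42 of 54 virgin cells, Pgr, the progesterone receptor, in 1 of 49 and 21 of 54, and the pioneer factor Foxa1 in 0 of 49 and 24 of 54.

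Prlr, the prolactin receptor (chromosome 15, 10177238 to 10349180), behaved otherwise: it was found in 34 of 49 pregnant and 51 of 54 virgin cells and was lower at all 5 percentiles. It had 0.0085, 3.11 and 40.2 FPKM in pregnant and 0.0434, 67.7 and 386 FPKM in virgin cells, with a mean log2 FPKM among detecting cells of 2.62 and 5.68, a difference in mean log2(FPKM + 1) of -3.34. Without the marker-positive virgin cells defined below the difference was -0.51. The median was 146 FPKM in marker-positive and 6.07 FPKM in marker-negative virgin cells. Prlr is itself among the markers that define these cells, so this split and the smaller difference follow in part from that choice. Its partner kinase Jak2 differed by -1.24, Stat5a by 0.26 and Stat5b by 0.23; of 9 compared genes of prolactin and STAT5 signalling, 2 were higher (Elf5 and Cish) and 2 were lower (Prlr and Jak2); against marker-negative virgin cells 3 were higher and 0 lower.

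To see which virgin cells carried the lower genes, a cell was called hormone-sensing marker positive when at least 3 of the 5 genes Esr1, Pgr, Prlr, Cited1 and Areg reached 1 FPKM. This held in 0 of 49 pregnant and 37 of 54 virgin cells. Counts of the 5 markers per cell were 0 in 14, 1 in 34 and 2 in 1 of the pregnant cells, and 0, 1, 2, 3, 4 and 5 in 2, 8, 7, 4, 14 and 19 of the virgin cells. Most virgin cells thus held 4 or 5 of the markers or at most 2, and no pregnant cell held 3. Whether pregnant mice had fewer such cells in the gate, or had cells of this kind that no longer held the transcripts, cannot be told apart.

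The 515 lower genes fell into 353 that were detected in 25 to 75% of virgin cells and 162 that were detected in over 75%. Of the 353, 38 reached 1 FPKM in 0 pregnant cells and 114 in under 5, and 0 were lower at all 5 percentiles. That last 0 follows from the definition: genes found in at most 75% of virgin cells lie below 1 FPKM at the lowest of those percentiles. Leaving out the marker genes themselves, 350 genes remained, and 188 of them had a share at least 25 points higher in marker-positive than in marker-negative virgin cells, 156 were within 25 points and 6 were at least 25 points lower. In the median gene, 80.6% of its detecting virgin cells were marker positive, where 68.5% of all virgin cells are. In 30 of the 350 genes no marker-negative virgin cell reached 1 FPKM. Of the 160 broad genes outside the marker set, 20 had a share at least 25 points higher in marker-positive cells. The same split over all compared genes is not given here, so these counts have no background beside them. A median marker-positive virgin cell had 3841 genes at 1 FPKM or more and a median marker-negative one 3485.

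Genes found mainly in marker-positive virgin cells, of which Gipc2, Tspan1 and Fgb were picked out after their values were seen, included Gipc2, a PDZ-domain adaptor, in 0 of 49 pregnant cells, 34 of 37 marker-positive and 0 of 17 marker-negative virgin cells. Tspan1, a tetraspanin, was in 0 of 49 pregnant, 31 of 37 marker-positive and 1 of 17 marker-negative virgin cells, and Capsl, a calcyphosine-like protein, in 2 of 49, 33 of 37 and 1 of 17. Wnt5a, a secreted Wnt ligand, was in 0 of 49, 19 of 37 and 2 of 17 cells. Fgb, a fibrinogen chain, was in 0 of 49, 22 of 37 and 1 of 17, with a highest value of 3446 FPKM in virgin cells. Dcn, a matrix proteoglycan and the 1 fibroblast marker that passed the detection minimum, was in 4 of 49, 15 of 37 and 1 of 17 cells, with a difference of -1.02. Without the marker-positive cells the differences of the first 5 genes were between -0.53 (Fgb) and -0.06 (Gipc2).

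Cell by cell, the 350 genes were not all absent from pregnant cells. A pregnant cell detected 10 to 124 of them (median 68), a marker-positive virgin cell 65 to 305 (median 219) and a marker-negative virgin cell 58 to 160 (median 116). Marker-positive and marker-negative virgin cells overlapped in this count, as did marker-negative virgin and pregnant cells. The lowest counts, 65 among marker-positive and 10 among pregnant cells, were in cells with only 1081 and 1695 genes at 1 FPKM or more. The genes and the marker-positive cells were both chosen on values of these cells, so these numbers describe them and test nothing.

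**Figure D3:**
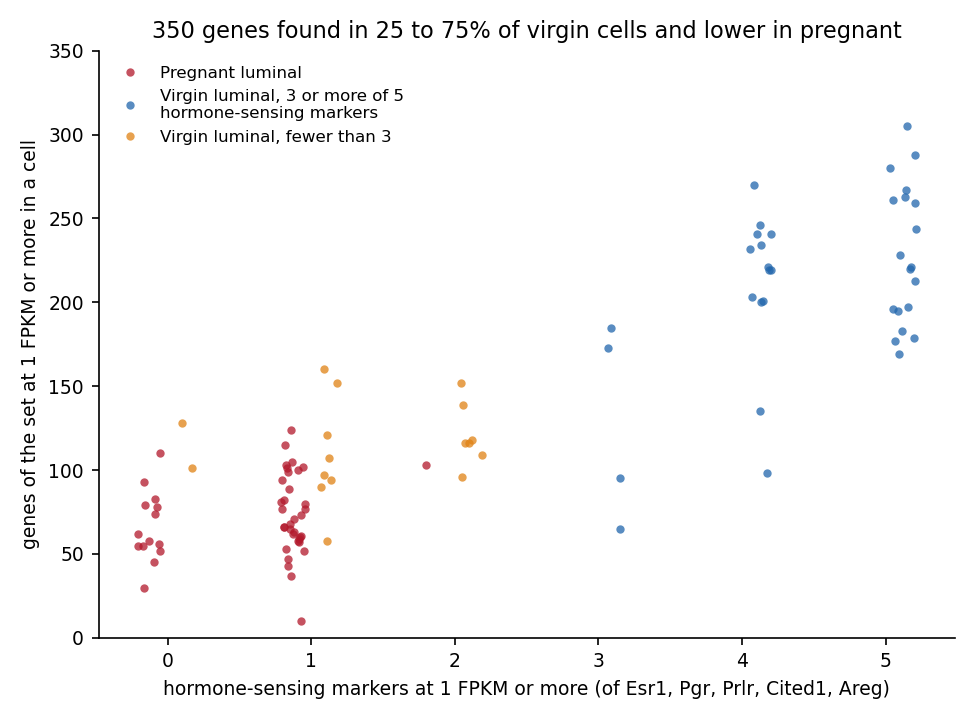
Number of 350 genes (lower in pregnant cells, detected in 25 to 75% of virgin cells, without the 5 markers) at 1 FPKM or more in each cell, against the number of hormone-sensing markers at 1 FPKM or more; each point is a cell. Pregnant cells hold 0 to 2 markers and at most 124 of the genes, and virgin cells with 3 or more markers hold up to 305.

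Not every lower gene was a subset gene: annexin and S100 genes, which encode calcium-binding proteins of membranes and the cytoskeleton, were also lower against marker-negative virgin cells. Of 14 compared members, 11 were lower and 0 were higher, with a median difference of -1.28; 8 were lower without marker-positive cells, and 12 of 14 were lower after rescaling by either method. Anxa2 (chromosome 9, 69453620 to 69491795) had 0, 4.65 and 3053 FPKM in pregnant and 0.476, 657 and 3749.9 FPKM in virgin cells. It was detected in 27 of 49 pregnant and 53 of 54 virgin cells, with mean log2(FPKM + 1) of 3.44 ± 3.46 and 8.86 ± 2.22 and a difference of -5.42. Its highest pregnant value was in the cell with the highest sum of fibroblast markers. Marker-positive and marker-negative virgin cells had nearly the same median, 675 and 609 FPKM, and the difference without marker-positive cells was -5.16. S100a6 had 0, 0 and 778 FPKM in pregnant and 0.171, 446 and 4397 FPKM in virgin cells, with 9 and 51 detecting cells and a difference of -6.30; without marker-positive cells it was -3.21. S100a11 differed by -1.88, and -1.07 without those cells. Anxa3 stood with the subset genes, in 2 of 49 pregnant, 28 of 37 marker-positive and 4 of 17 marker-negative virgin cells.

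Other genes lower at all 5 percentiles and found in virgin cells of both kinds were Cd63, a tetraspanin of late endosomes, with medians of 106 FPKM in pregnant and 337 FPKM in virgin cells (difference -2.32, and -2.44 without marker-positive cells), and Rac1, a GTPase of the cytoskeleton, with 13.8 and 84.4 FPKM (-2.21 and -1.55). Adam10, a membrane protease, had medians of 13.4 and 55.9 FPKM (-2.23 and -1.04). The transcription factor Runx1 had medians of 7.56 and 32.9 FPKM (-2.19 and -1.49), and the nuclear lamina gene Lmna differed by -2.13 and -1.62. Cd164, a sialomucin, met the same criterion with a difference of -2.96, but without marker-positive cells it was -0.49: its median was 42.5 FPKM in pregnant, 648 FPKM in marker-positive and 67 FPKM in marker-negative virgin cells. A difference at every percentile of the group thus did not always hold against each kind of virgin cell.

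The gene with the largest negative difference, Ly6d, a lymphocyte antigen family member also used as a luminal marker (chromosome 15, 74762056 to 74763620), combined both patterns. It had 0, 0 and 228 FPKM in pregnant and 0, 254 and 14148 FPKM in virgin cells and was in 2 of 49 and 48 of 54 cells, a difference of -6.60. Among virgin cells its median was 695 FPKM in marker-positive and 2.98 FPKM in marker-negative cells, and against the marker-negative cells alone the difference was -3.43. F3, the tissue factor of coagulation, had a difference of -5.63, and of -1.82 against marker-negative cells. Ptn, a heparin-binding growth factor, was in 3 of 49 pregnant, 37 of 37 marker-positive and 9 of 17 marker-negative virgin cells, with differences of -6.53 and -1.30. Krt7, a simple epithelial keratin, was in 13 of 49 and 45 of 54 cells (-4.37 and -2.05), while Krt8 differed by -0.06 and Krt18 by -0.50.

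Setting pregnant cells against the 17 marker-negative virgin cells alone, 5913 genes passed the detection minimum, 569 were higher (9.62%) and 411 were lower (6.95%). Of the 496 genes higher with all cells, 261 were still higher, 229 were under the limit and 6 were lower; of the 515 lower genes, 173 were still lower, 199 were under the limit, 142 no longer passed the detection minimum and 1 was higher. By virgin breadth, 85 of the 353 subset genes and 88 of the 162 broad genes were still lower. The 142 genes that no longer passed the detection minimum were all subset genes and could not be counted as lower. Of the remaining subset genes 125 were under the limit and 1 was higher, and of the broad genes 74 were under the limit. Among the genes shifted at all 5 percentiles, 32 of 42 higher and 26 of 33 lower genes were still counted. Of the 569 and 411 genes, 307 and 209 had been under the limit with all virgin cells. These counts rest on 17 virgin cells, and both comparisons share the 49 pregnant cells.

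**Figure D4:**
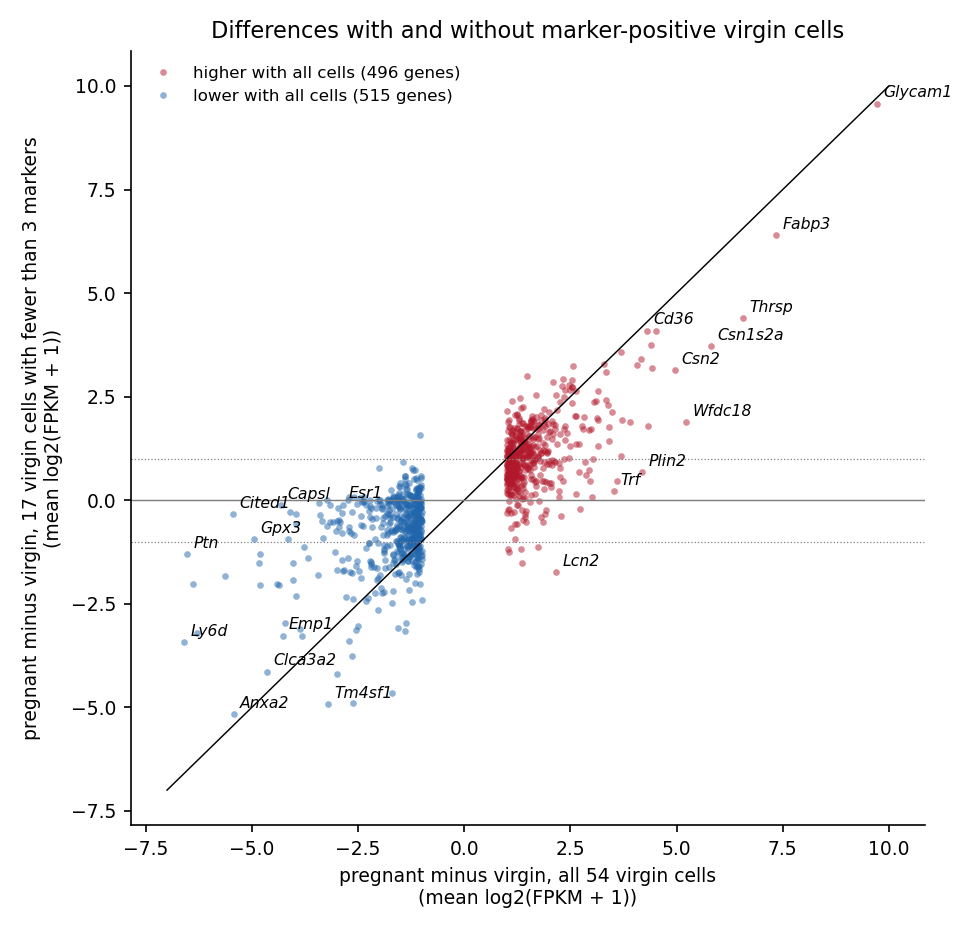
Difference between pregnant and virgin luminal cells, in mean log2(FPKM + 1), with all 54 virgin cells (horizontal) and with the 17 marker-negative virgin cells (vertical) for 496 higher and 515 lower genes; the diagonal marks equal values and dotted lines a difference of 1. Glycam1 and Anxa2 lie near the diagonal, Cited1, Capsl and Esr1 near 0 on the vertical axis, and Lcn2 lies below 0 although higher with all cells. Cited1 and Esr1 are among the markers by which virgin cells were left out, so their place near 0 follows from that choice.

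Among milk genes the 2 kinds of virgin cell gave different answers. Glycam1 differed by 9.57 against marker-negative cells, Fabp3 by 6.40, Wap by 4.09 and Cd36 by 4.09, each within 1 of its difference with all cells. Csn2 differed by 3.14, and its median was 284 FPKM in marker-positive and 2424 FPKM in marker-negative virgin cells. Csn3, kappa-casein, differed by 3.02 with all virgin cells and by 0.07 against marker-negative ones, whose median of 2669.6 FPKM compares with 5171 FPKM in pregnant and 159.6 FPKM in marker-positive cells. Trf, the iron carrier transferrin, differed by 3.53 and 0.21, and Plin2 by 4.18 and 0.68. Over the milk protein list, 9 of 9 were higher with all virgin cells, and against marker-negative cells 5 were higher and 1, Mfge8, was lower, with a median difference of 1.89; of 18 milk fat genes, 10 were higher and 0 lower, with a median of 1.22.

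For some genes of secreted proteins the direction itself differed. Lcn2, a siderophore-binding defence protein (chromosome 2, 32384633 to 32388252), had 0.562, 1817 and 4431 FPKM in pregnant and 0.663, 542 and 21900.0 FPKM in virgin cells, a difference of 2.16. Its median was 70.8 FPKM in marker-positive and 4841 FPKM in marker-negative virgin cells, and against the marker-negative cells the difference was -1.74. Mfge8, a milk fat globule protein, differed by 1.75 and -1.13, and Cp, the ferroxidase ceruloplasmin, by 1.37 and -1.52. The alveolar and luminal progenitor list had 6 of 10 higher and 0 lower with all virgin cells, and 2 higher and 3 lower against marker-negative ones; after rescaling, 5 or 4 were higher with all virgin cells. Elf5 was higher in both comparisons (2.93 and 1.69), as was Wfdc18, a whey acidic protein family member (5.23 and 1.89).

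In a few genes the medians of marker-positive and marker-negative virgin cells lay on either side of that of pregnant cells, and the difference with all virgin cells was under 1; they were picked out after their values were seen. Cd14, a lipopolysaccharide co-receptor, had medians of 48.2 FPKM in pregnant, 5.52 FPKM in marker-positive and 404 FPKM in marker-negative virgin cells, with differences of -0.16 with all virgin cells and -2.90 against marker-negative ones. Igfbp5, an IGF-binding protein, gave 0.92 and -2.03, and Cldn1, a tight junction claudin, gave -0.10 and -2.61. Tm4sf1, a tetraspan membrane protein, was lower in both and more so against marker-negative cells (-3.20 and -4.92), as was Saa1, an acute phase protein (-3.00 and -4.20), whose reads cannot be told apart with certainty from those of its near copy Saa2.

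Other gene groups varied in how many members passed the limit, beside backgrounds of 7.95% higher and 8.26% lower with all virgin cells and 9.62% and 6.95% against marker-negative ones. Of 19 compared genes of the secretory pathway and ER chaperones, 4 were higher, among them Xbp1 and the translocon-associated Ssr4 (1.15), and 1, the disulphide isomerase Pdia4 (-1.29), was lower; after rescaling, 2 or 3 were higher, and against marker-negative virgin cells 3 were higher and 1 lower. Of 9 genes of glucose uptake and lactose synthesis, 1 was higher (Lalba) and 1 lower (Pgm1, -1.52), while the glucose transporter Slc2a1 differed by 0.95; against marker-negative cells 0 were higher and 0 lower. Of 9 iron handling genes, 5 were higher and 1 lower, led by Trf, the transferrin receptor Tfrc (1.81) and ferritin heavy chain Fth1 (1.63), with a median difference of 1.10; against marker-negative cells 1 was higher and 3 were lower, with a median of 0.17. Of 8 secreted defence genes, 3 were higher and 3 lower, with Pigr at 2.80, Wfdc2, a protease inhibitor family member, at -6.38 and Slpi, a leukocyte protease inhibitor, at -2.88; against marker-negative cells 2 were higher and 5 lower, and the median difference was -1.58 there and 0.08 with all virgin cells. Of 4 genes of IGF and Wnt ligands and modulators, 3 were lower: Ptn, Wnt5a (-1.54) and Wnt4 (-1.17), the progesterone-induced Wnt ligand; 2 were lower against marker-negative cells.

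Energy metabolism stayed mostly under the limit. In glycolysis 3 of 14 genes were higher and 1 lower, with the pyruvate kinase Pkm at -1.44 and Gapdh at 1.06; against marker-negative cells 0 were higher and 2 lower. In oxidative phosphorylation 1 of 17 was higher, Ndufa1 (1.12), and 0 after rescaling, when 1 was lower; against marker-negative cells 4 were higher and 0 lower. Of 12 luminal identity genes, 1 was higher, Ehf, and 3 were lower: Krt7, Krt19 (-1.49) and Elf3 (-1.76); against marker-negative cells 1 was higher and 1 lower. Of 9 housekeeping genes, 2 were higher and 1 lower, with 0 and 0 against marker-negative cells, and Actb differed by 0.13.

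Proliferation genes were sparse in both groups. Mki67, which marks cycling cells, reached 1 FPKM in 10 of 49 pregnant and 10 of 54 virgin cells; 3 of 12 DNA replication and 2 of 13 mitosis genes passed the detection minimum, with 0 higher and 0 lower, and against marker-negative cells 1 DNA replication gene, Pcna, was lower (-1.06). Aurkb, a mitotic kinase, was in 2 of 49 pregnant and 0 of 54 virgin cells. Of 11 interferon and antigen presentation genes, 0 were higher and 1 was lower, Ifitm3 (-3.24); against marker-negative cells 3 were higher and 0 lower, and Ifitm3 differed by 0.005. Of 5 Notch genes, 0 were higher and 1 was lower, the ligand Jag1 (-1.31), which differed by 0.40 against marker-negative cells, where 0 were higher and 0 lower. Of 5 ERBB genes 0 were higher and 1 was lower in either comparison, Areg with all virgin cells (-4.84, and -1.52 against marker-negative ones). Areg is among the markers that define those cells, so its value against them depends in part on that choice.

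Immediate early genes, which respond to tissue dissociation, differed in both directions. Of 16 compared, 5 were higher and 1 was lower, and 4 or 5 were higher and 3 lower after rescaling. Egr1 had 0.0761, 152 and 1379 FPKM in pregnant and 0, 37 and 447 FPKM in virgin cells, a difference of 2.56. Fos had 0.0516, 117 and 3011 FPKM in pregnant and 0, 493 and 2304 FPKM in virgin cells, a difference of -1.93 with all virgin cells and -0.13 against marker-negative ones. Against marker-negative cells, 8 of 16 were higher and 0 lower. The part of cell handling in these and the other differences was not tested.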

How the data were processed

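The members of each group, the gene lists and the class limits were chosen with earlier results of these data known. The authors deposited FPKM values for 18850 genes in 239 cells; no header names the unit, which follows from the range of the values and the programs used. Per the labels' protocols, SMARTer cDNA was turned into Nextera XT libraries, the stain also held an antibody to CDH5, and capture sites were viewed for doublets; no doublet caller was run. Per the submitters' processing notes, the programs were Cufflinks 2.2.1, TopHat2 2.0.13 and Trimmomatic 0.35 and the build mm10 (GRCm38); annotation, filters and treatment of multiply mapping reads were not given in the sources used here, so values of genes with near copies are uncertain. GENCODE annotation of GRCm38 gave the coordinates.

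The comparison used all luminal-gate cells, no 2 cells had identical values, and 0 columns lacked a sample. Computation used Python 3.11.15 with pandas 2.3.3, numpy 2.4.6 and scipy 1.17.1 and was tested on simulated data. Depth was read from the most frequent value of FPKM times length over 2228 single-transcript genes of at least 1000 bases. Differences are of mean log2(FPKM + 1), pregnant minus virgin, and understate the change of low genes. Intervals on shares are exact Clopper-Pearson 95% intervals; a count of 0 allows 3 cells; both cover the counting of cells only. Low genes can be missed in a cell, and copies made by PCR cannot be told from molecules.

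There were 29 lists with 349 of 350 entries in the table. Named genes were the 15 most different in each direction, the 6 largest of each class and direction, up to 4 of each list and 16 set genes, 155 in all; a further 18 were added after their values were seen, among them Csn3, Cd14 and Runx1. Other genes named from the lists or from those shifted at all 5 percentiles (such as Fasn, Xdh, Gjb2 and Lmna) were also chosen after their values were seen. Alternatives were pseudocounts of 0.1 and 10, detection at 0.1 and 10 FPKM, no detection minimum, rescaling of each cell without the milk protein genes or by the median ratio over 627 genes found in at least 90% of cells, cells with at least 2000 genes or between the 25th and 75th percentile of gene number, a class limit of 40 points, and leaving out contractile or hormone-sensing marker positive cells.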

Additional observations from a re-analysis of the deposited data

How the results depend on the processing

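Leaving out the contractile marker positive cells, keeping cells with at least 2000 genes, or dropping the detection minimum left all 9 counts of genes within 1.5 times their values. Rescaling without the milk protein genes gave 395 higher and 650 lower genes, and rescaling by median ratio gave 346 and 580. Only counts of genes differing in level alone moved by more than 1.5 times on rescaling. They came to 72 higher and 151 lower without the milk protein genes and to 62 higher by median ratio. The pseudocount mattered most. With 0.1, counts were 1079 higher and 1154 lower genes, 162 lower by level, 73 higher and 74 lower at all 5 percentiles, and 911 lower genes found in 25 to 75% of virgin cells; with 10 they were 110 higher and 130 lower, 21 higher and 51 lower by share, 46 higher and 32 lower by level, 17 higher and 12 lower at all 5 percentiles, and 58 in the subset. Genes by level were 191 higher and 158 lower with detection at 0.1 FPKM, and 36 higher and 19 lower with detection at 10 FPKM. With the central cells by gene number, 366 genes were higher by share, 139 lower by level and 64 higher at all 5 percentiles. A limit of 40 points gave 48 higher and 71 lower by share and 139 lower by level; it does not enter the subset count. Without hormone-sensing marker positive cells the subset held 232 genes. Without cells with 2 or more such markers, an alternative chosen after seeing the data that leaves 48 pregnant and 10 virgin cells, 822 genes were higher, 411 higher by share and 178 lower by level.

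Of 126 named genes counted as higher or lower, none changed sign under the other settings. Without marker-positive virgin cells 10 did: Ctsh to -0.23, Tubb6 to -0.32, Mfge8 to -1.13, Ifitm3 to 0.005, Ift43 to 0.33, Pgm1 to 0.41, Lcn2 to -1.74, Cp to -1.52, Jag1 to 0.40 and Dcn to 0.55. Without cells with 2 or more markers 17 did or came to 0: Ctsh to -0.96, Tubb6 to -1.28, Mfge8 to -0.94, Phyh to 0.0238, Capsl to 0.00, Pgm1 to 0.43, Lcn2 to -1.74, Elf3 to 0.49, Prlr to 0.0774, Jak2 to 0.29, Cp to -1.32, Pgk1 to -0.0287, Fos to 0.63, Jag1 to 1.19, Dcn to 0.78, Hprt to 1.10 and Esr1 to 0.0025. Both settings leave out virgin cells by construction, and the second also 1 pregnant cell. Esr1 and Prlr are among the markers that set which cells were left out. Beyond that, the cause of these changes was not tested. No paired analysis was possible because cell numbers mark no mouse or chip and no test was run. With each group 1 sample, no difference can be separated from one between mice or chips, and genes near 1 FPKM are missed in shallow cells.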
